A study of Homo sapiens with 96 samples.

Results

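The transcriptional response to R1881 alone was measured in LAPC4 cells by comparing 6 arrays of cells given 0.33 nM R1881 with 6 arrays of cells given 0.05% DMSO vehicle. These are 12 of the 96 arrays of the series, chosen by their titles, and the arrays of R1881 combined with another chemical did not enter the comparison. LAPC4 is a human prostate cancer cell line that expresses the androgen receptor, and R1881 (methyltrienolone) is a synthetic androgen. Both groups were grown in medium with 5% fetal bovine serum and exposed for 6 h, and the labels give no genetic change in either. The labels do not say whether the serum was stripped of steroids, so the DMSO cells are cells without added androgen and not cells known to be free of it. The 6 arrays of each group were labelled 1, 2, 3, 1b, 2b and 3b. The series' design text speaks of 3 experiments on separate days, but the labels tie no array to a day and do not say how 1b to 3b differ from 1 to 3. The p-values therefore measure the spread between these arrays, which may be partly technical.

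The androgen receptor is a nuclear receptor that, once it binds androgen, moves to the nucleus and binds DNA at androgen response elements, which are inverted repeats built around AGAACA. In prostate luminal cells it switches on secreted serine proteases and other products of the secretory epithelium, together with genes that the closely related glucocorticoid receptor also controls. It also lowers the transcription of a smaller set of genes.

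The values are the deposited log2 intensities, with array medians of 6.7211 to 6.7212. Of 12665 genes tested, each is given by its brightest probe among those above the median of their own array in at least 6 of the 12 arrays. How background was corrected is not known and no detection p-value was used, so a dim gene may not have been above background in the DMSO arrays, and its fold would then be a lower limit. Markers of luminal prostate epithelium were bright in the DMSO arrays, with means of 12.20 for FOXA1, 11.35 for EPCAM, 10.52 for CDH1, 10.01 for HOXB13 and 8.37 for KRT8. KLK3, which encodes prostate-specific antigen and is a defining luminal marker, was an exception at 6.73, close to the array median. Of 10 stromal markers 4 passed the filter and of 10 immune and endothelial markers 4 did, and PTPRC (6.62), CD3E (6.58) and COL1A2 (6.66) lay below the array median. Other markers of non-luminal cells were not dim: in DMSO the stromal marker ACTA2 (10.24) and the basal marker CDH3 (10.14) were brighter than HOXB13 and KRT8, and CD68 (7.52), VIM (7.41) and the neuroendocrine marker ENO2 (8.44) lay above the array median. None of the stromal, immune, endothelial, basal or neuroendocrine markers was called in either direction, and the mean level over the measured stromal markers ranged from 7.74 to 8.03 in DMSO arrays and from 7.66 to 8.01 in R1881 arrays.

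R1881 raised a short and steep list of genes and lowered few. At an adjusted p under 0.05 (limma with Benjamini-Hochberg adjustment over all genes tested), 56 genes were higher (0.442%) and 5 were lower (0.0395%), so that 0.482% of the genes were called. An unadjusted p under 0.05 was reached by 445 genes. Among the raised genes 19 were at least 2-fold higher and 42 at least 1.5-fold, while 37 had a log2 difference under 1 and 14 were raised by less than 1.5-fold. In all 61 called genes the 6 R1881 arrays did not overlap the 6 DMSO arrays. Of all genes tested 1.01% showed such a separation (0.742% higher and 0.268% lower). UGT2B28, MME and PHACTR3 lay below the array median in every DMSO array, so they passed the filter only through R1881 arrays. Their direction and separation were thereby fixed in advance, and nothing is read from them. Groups without overlap must differ in the same direction in each of the 6 pairs of arrays of the same label. All 61 did so, and nothing further is read from it. Over all genes 3.56% were higher in every pair. Each array reads RNA of a whole culture, so fewer cells with a transcript and less of it per cell cannot be told apart.

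Arrays of the same label deviated from their group means together, so a fit with the label as a block was also made. It takes the 6 labels as separate pairs, although most arrays also correlated with their own b array. In that paired fit 141 genes were higher (1.11%) and 36 were lower (0.284%), 1.4% of the genes in all, and all 61 genes above were among them. It added 85 raised and 31 lowered genes, 154 of its 177 calls had a log2 difference under 1 in size, and 87 were changed by less than 1.5-fold. The unpaired fit is the reference in what follows, and a gene that passed only with the block is described as such. When arrays of the same number were averaged and the number kept as a block, 3 of the genes that the label block had added passed (LRIG1, SOCS2 and PPP3CA-DT), and 18 of the 61 did. All other genes given below as passing only in the paired fit were not called in that fit, ZBTB16, ERRFI1 and TIPARP among them (adjusted p 0.139, 0.0526 and 0.159).

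**Figure D1:**
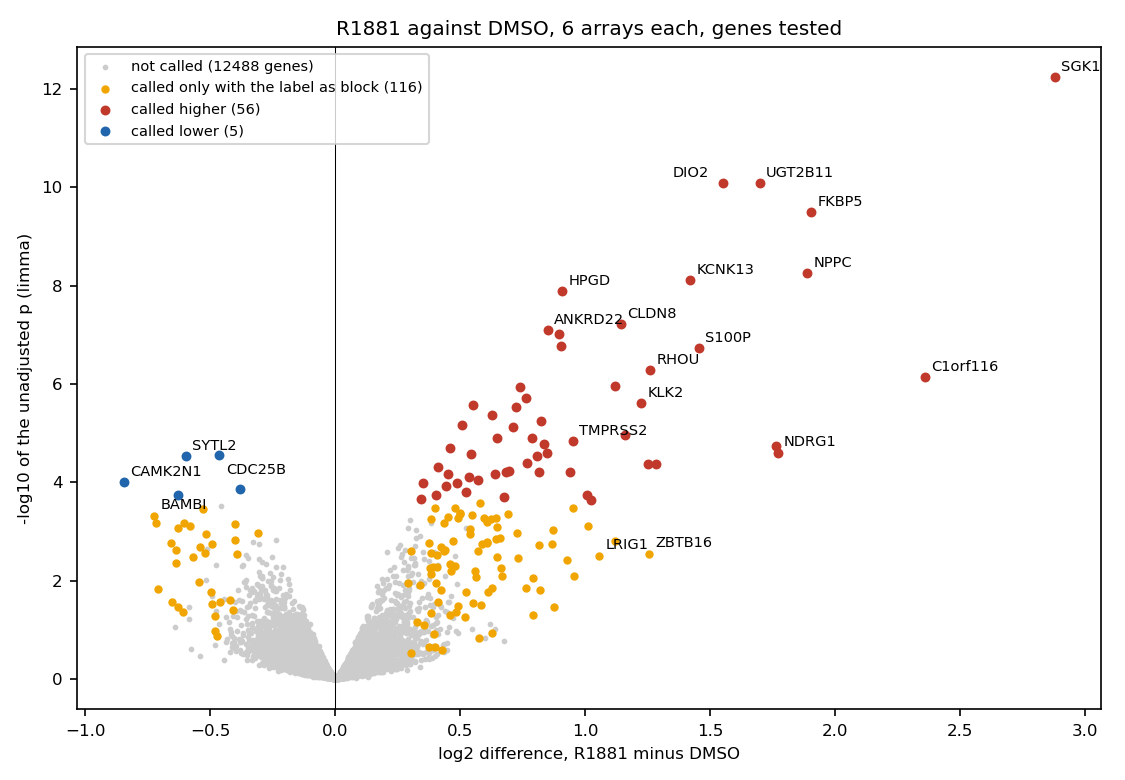
Each point is 1 of the 12665 genes tested, with the log2 difference (R1881 minus DMSO) on the horizontal axis and the -log10 of the unadjusted limma p on the vertical axis. The 56 raised genes (red) reach a log2 difference of 2.88 for SGK1, the 5 lowered genes (blue) reach -0.85 for CAMK2N1, and the genes called only with the label as a block (orange, 85 higher and 31 lower) lie below them.

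Among targets that androgen and glucocorticoid receptors share, SGK1 and FKBP5 rose most. SGK1, which had the largest difference of all genes called, is a serine/threonine kinase that controls ion transport and cell survival. It had a lowest, median and highest level of 8.82, 8.93 and 8.98 in the DMSO arrays and of 11.47, 11.83 and 12.004 in the R1881 arrays. It rose 7.35-fold (log2 difference 2.88, SE 0.093, n = 6 arrays per group, limma adjusted p 7.34e-09), and the lowest R1881 array stood far above every DMSO array. Its other kept probes differed by 2.78 and 3.09. FKBP5, a co-chaperone of steroid receptors, lay at 9.29, 9.37 and 9.46 in DMSO and at 10.95, 11.31 and 11.62 in R1881. It rose 3.74-fold (SE of the log2 difference 0.10, adjusted p 1.01e-06). KLF9, a zinc finger transcription factor, was already bright at 10.36, 10.44 and 10.53 in DMSO and lay at 10.93, 11.26 and 11.56 in R1881. Its rise was 1.73-fold (adjusted p 0.00594), with groups that did not overlap. CEBPD, a leucine zipper transcription factor, went from 7.72 to 8.07 in DMSO to 8.65 to 8.95 in R1881, a rise of 1.87-fold (adjusted p 0.000196).

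Others of these shared targets passed only in the paired fit. ZBTB16, a transcriptional repressor also called PLZF, lay at 7.72, 8.36 and 9.03 in DMSO and at 8.62, 9.82 and 10.30 in R1881, so the groups overlapped. Its log2 difference was 1.25, with an adjusted p of 0.266 unpaired and 0.00317 paired. The other kept probes of ZBTB16 differed by 1.09 and 0.29. ERRFI1, an inhibitor of EGF receptor signalling, had a log2 difference of 1.01 and adjusted p of 0.112 unpaired and 0.00065 paired. TIPARP, an ADP-ribosyltransferase, differed by 0.95 (adjusted p 0.0647 unpaired and 0.0042 paired). NFKBIA, the inhibitor of NF-kappaB, and PDK4, a kinase that blocks pyruvate dehydrogenase, differed by 0.48 and 0.48, with paired adjusted p of 0.00347 and 0.0253. The metallothioneins MT2A and MT1X, which glucocorticoids raise in many cells, differed by -0.12 and -0.07 and were not called.

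SGK1 and FKBP5, the shared targets that rose most, have 3 and 2 RefSeq promoter windows. For each gene only the window that holds AGAACA is shown, so these windows were chosen for the motif. The other windows of both genes do not hold it. The windows run from 250 bases before to 50 after a transcription start on GRCh38.p14, at chr6:134177812-134178111 for SGK1 and chr6:35728534-35728833 for FKBP5, both on the minus strand. They are shown 5′ to 3′ with AGAACA in capitals. Counting the start as base 1, it begins at base 6 in the SGK1 window and at base 1, the start itself, in the FKBP5 window.
SGK1: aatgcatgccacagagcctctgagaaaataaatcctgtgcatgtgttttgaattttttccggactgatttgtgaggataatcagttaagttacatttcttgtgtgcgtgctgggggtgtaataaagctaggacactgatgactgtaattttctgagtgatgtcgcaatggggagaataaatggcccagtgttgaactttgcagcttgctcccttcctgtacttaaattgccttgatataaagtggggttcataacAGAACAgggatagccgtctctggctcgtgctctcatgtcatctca
FKBP5: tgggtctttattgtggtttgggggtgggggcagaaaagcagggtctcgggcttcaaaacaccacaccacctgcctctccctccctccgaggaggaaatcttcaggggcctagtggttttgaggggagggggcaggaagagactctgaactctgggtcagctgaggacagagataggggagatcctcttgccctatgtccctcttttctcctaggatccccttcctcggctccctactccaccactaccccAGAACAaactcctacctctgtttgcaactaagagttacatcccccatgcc
Across RefSeq, 46 of the 56 raised genes had 75 such windows. AGAACA, searched on both strands, was in 9 of these (12%), in 10.2% of the windows of all genes tested and in 14.8% of all 35116 windows. The full element, AGAACA followed after any 3 bases by TGTTCT, was in 0 of the 75 windows and in 1 of all windows (0.00285%). A looser form, which asks only for G, any base and ACA, then any 3 bases, then TGT, any base and C, was in 0 of the 75 and in 0.39% of all windows. These letters describe the windows only, and androgen receptor binding was not measured.

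The secreted and membrane-bound serine proteases of the prostate rose unevenly. KLK2, a kallikrein that activates prostate-specific antigen, was dim in DMSO at 6.79, 6.90 and 7.37 and lay at 7.89, 8.19 and 8.69 in R1881. It rose 2.33-fold (log2 SE 0.15, adjusted p 0.00172). KLK4, another kallikrein of the prostate, lay at 9.48, 9.78 and 10.43 in DMSO and at 10.69, 11.13 and 11.24 in R1881, a rise of 2.23-fold (adjusted p 0.00567). Its smallest step was in the arrays labelled 2b, from 10.43 to 10.69. TMPRSS2, a membrane-bound serine protease whose promoter is often fused to ETS genes in prostate cancer, was bright without added androgen. Its levels were 10.15, 10.41 and 10.67 in DMSO and 10.95, 11.28 and 11.75 in R1881, and it rose 1.93-fold (adjusted p 0.00655).

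KLK3 itself was not called. Its probe lay at 6.65, 6.73 and 6.84 in DMSO and at 6.59, 6.81 and 7.03 in R1881, a log2 difference of 0.10 (SE 0.085, adjusted p 1), and it was near the array median throughout. KLK2 and KLK3 are close in sequence, and how far each probe tells them apart was not tested. Among 14 measured kallikreins and secretory proteins, 3 were raised (21.4%), against 0.442% of all genes, and none lowered. The list was written with earlier results of these data known. PGC, a gastric-type protease of seminal fluid, differed by 0.29 and ORM1, an acute-phase plasma protein, by 0.27 without being called. ACP3, prostatic acid phosphatase, differed by -0.22.

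**Figure D2:**
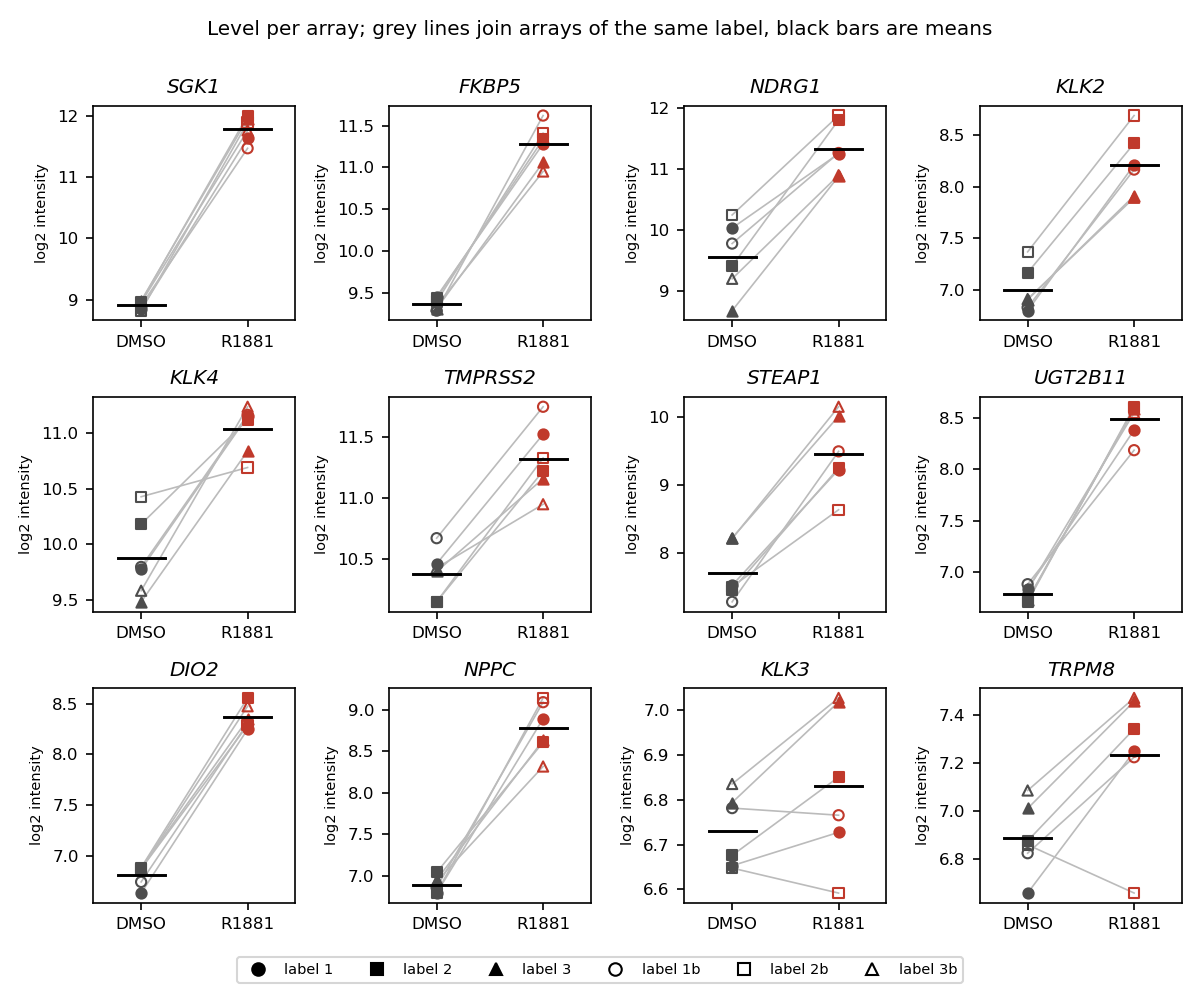
Log2 intensity of 12 genes in each of the 12 arrays, DMSO in grey and R1881 in red, with the symbol giving the array label, grey lines joining arrays of the same label and black bars at the group means. The groups separate for 10 of the 12 genes, and KLK3 and TRPM8 overlap. Each panel has its own vertical range.

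Some surface metalloreductases and transporters were among the raised genes, picked out after their values were seen. STEAP1, a prostate surface metalloreductase, lay at 7.28, 7.52 and 8.22 in DMSO and at 8.64, 9.37 and 10.15 in R1881. It rose 3.39-fold (log2 SE 0.26, adjusted p 0.00762), and the arrays labelled 3 and 3b were the highest of each group. A dimmer kept probe of STEAP1 had a log2 difference of 0.78 against 1.76. Its relative STEAP2 rose 1.75-fold, from 6.57 to 7.22 to 7.495 to 8.05 (adjusted p 0.0101). SLC45A3, the prostate membrane transporter known as prostein, rose 1.79-fold (adjusted p 0.0074), from 7.71 to 8.22 to 8.45 to 9.04. SLC35F2, a solute carrier of the plasma membrane, rose 1.49-fold (adjusted p 0.0232). ABCC4, an exporter of organic anions, differed by 0.79 on the log2 scale with overlapping groups, and passed only in the paired fit (adjusted p 0.568 unpaired and 0.00347 paired). TRPM8, a cold-sensing channel of prostate epithelium, differed by 0.35 (adjusted p 0.951). It was higher under R1881 in 5 of the 6 pairs, and the array R1881 2b was the exception.

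KCNK13, a background potassium channel, went from 6.87, 6.92 and 7.04 in DMSO to 7.95, 8.37 and 8.65 in R1881, a rise of 2.67-fold (adjusted p 1.62e-05). CLDN8, a claudin of tight junctions, went from 7.06 to 7.37 to 8.02 to 8.54, a rise of 2.21-fold (adjusted p 9.62e-05). STK39, a kinase that activates cation-chloride cotransporters, rose 1.54-fold on a bright base of 10.61 to 10.84 (adjusted p 0.00262). NEDD4L, a ubiquitin ligase that removes the epithelial sodium channel from the membrane and is itself a substrate of SGK1, rose 1.6-fold (adjusted p 0.0433). NDFIP2, an adaptor of NEDD4-family ligases, rose 1.44-fold (adjusted p 0.0371). In the list of ion channels and solute carriers as a whole, 2 of 35 measured genes were raised (5.71%) and none lowered. Over all genes 0.442% were raised.

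Some enzymes that handle hormones and prostaglandins were also raised. UGT2B11, a glucuronosyltransferase, lay at 6.71, 6.78 and 6.88 in DMSO and at 8.19, 8.57 and 8.61 in R1881, and rose 3.24-fold (log2 SE 0.083, adjusted p 3.52e-07). Its other kept probe had a log2 difference of 0.95 against 1.70. UGT2B28, which glucuronidates androgens, lay below the array median in DMSO at 6.45, 6.54 and 6.67 and at 6.89, 7.42 and 7.69 in R1881. It rose 1.76-fold (adjusted p 0.0175). It passed the filter only through its R1881 arrays, so its direction was fixed in advance. Both enzymes stood on the list of androgen-repressed genes, and here they moved the other way. UGT2B15 and UGT2B17, their relatives that inactivate dihydrotestosterone, differed by -0.05 and -0.22 and were not called. The UGT2B genes are nearly identical over long stretches, so the probe of each may read its relatives too, and this was not tested.

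DIO2, the deiodinase that converts thyroxine to active thyroid hormone, was at 6.64, 6.88 and 6.89 in DMSO and at 8.25, 8.33 and 8.56 in R1881. It rose 2.93-fold (log2 SE 0.076, adjusted p 3.52e-07). DIO1 and DIO3, the other deiodinases, differed by 0.04 and -0.08. HPGD, which inactivates prostaglandins, lay at 6.74, 6.90 and 6.96 in DMSO and at 7.65, 7.79 and 7.91 in R1881, and rose 1.87-fold with a small error (log2 SE 0.069, adjusted p 2.39e-05). PTGER4, a prostaglandin receptor, had a log2 difference of 0.96 and passed only in the paired fit (adjusted p 0.528 unpaired and 0.00223 paired). It was chosen after its values were seen. In the list of steroid and thyroid hormone metabolism, 3 of 23 measured genes were raised (13%), against 0.442% of all genes, and none lowered.

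Several raised genes encode secreted or surface ligands and peptidases. NPPC, which encodes the C-type natriuretic peptide precursor, lay at 6.79, 6.89 and 7.04 in DMSO and at 8.32, 8.76 and 9.14 in R1881, a rise of 3.7-fold (adjusted p 1.4e-05). FGF9, a fibroblast growth factor, rose 1.8-fold from 8.90 to 9.60 to 9.75 to 10.32 (adjusted p 0.00972). Its other kept probe, which was dim, had a log2 difference of 0.22 against 0.85. MME, the peptidase neprilysin, cleaves natriuretic and other peptides. It was below the array median in DMSO at 6.49 to 6.71 and lay at 6.99 to 7.45 in R1881 (adjusted p 0.00594). MME passed the filter only through its R1881 arrays, so its direction was fixed in advance. S100P, a calcium-binding protein, rose 2.74-fold, from 7.12, 7.32 and 7.64 to 8.46, 8.74 and 9.24 (adjusted p 0.000198). SPARCL1, a matrix protein, rose 1.62-fold and TMEFF2, a transmembrane protein with follistatin-like domains, 1.46-fold, with adjusted p of 0.0175 and 0.00972.

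C1orf116, also known as specifically androgen-regulated gene, had the second largest difference and one of the widest spreads. Its levels were 7.80, 8.45 and 8.91 in DMSO and 9.99, 11.01 and 11.13 in R1881, a rise of 5.13-fold (log2 SE 0.26, adjusted p 0.000666). In both groups the arrays labelled 3 and 3b were the lowest, so the difference within labels varied less than the levels. The other kept probes of C1orf116, both dimmer, had log2 differences of 1.30 and 0.34 against 2.36. NDRG1, a stress- and androgen-responsive protein of differentiating epithelium, spread likewise over 8.68, 9.59 and 10.24 in DMSO and 10.88, 11.25 and 11.87 in R1881. It rose 3.41-fold (log2 SE 0.27, adjusted p 0.00972 unpaired). ENDOD1, which carries an endonuclease domain, rose 2.17-fold (adjusted p 0.000914) and ANKRD22, an ankyrin repeat protein, 1.8-fold (adjusted p 0.000114).

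Some of the raised genes encode regulators of transcription and chromatin, brought together here after their values were seen. EAF2, a cofactor of RNA polymerase elongation, lay at 6.98, 7.32 and 7.40 in DMSO and at 7.88, 8.499 and 9.13 in R1881, a rise of 2.38-fold (adjusted p 0.0137). Its highest R1881 arrays were those labelled 3 and 3b. SPDEF, an ETS factor of secretory epithelium, rose 2.03-fold on 8.25, 9.09 and 9.34 in DMSO, close to the threshold (adjusted p 0.0481). HES6, which counters the Notch effector HES1, rose 2.01-fold (adjusted p 0.0405). ETS2, an ETS factor, went from 7.74 to 7.98 to 8.36 to 8.84, a rise of 1.67-fold with a narrow spread (adjusted p 0.000937). MAF, a leucine zipper factor, rose 1.64-fold (adjusted p 0.00393), CDYL2, a chromodomain protein, 1.61-fold (adjusted p 0.0175) and MEAF6, a subunit of histone acetyltransferase complexes, 1.7-fold (adjusted p 0.00147). On another kept probe the log2 difference was 0.17 against 0.71 for MAF, 0.03 against 0.68 for CDYL2 and 0.75 against 0.76 for MEAF6. TCIM, a small protein linked to WNT signalling, rose 2.43-fold (adjusted p 0.0136). H2AZ1, a histone variant, was among the brightest genes called, at 12.45 to 13.00 in DMSO and 13.16 to 13.33 in R1881 (adjusted p 0.0211).

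GTPases and their exchange factors made up a further set, picked out after their values were seen. RHOU, a small GTPase, was bright at 10.11, 10.36 and 10.71 in DMSO and lay at 11.41, 11.61 and 11.98 in R1881, a rise of 2.39-fold (adjusted p 0.000507). RASD1, a Ras-family protein known for its induction by dexamethasone, rose 1.86-fold, from 6.75 to 7.03 to 7.64 to 7.87 (adjusted p 0.000121). RAPGEF5, an exchange factor of Rap GTPases, rose 1.77-fold, and CYTH1, one of Arf GTPases, 1.65-fold, with adjusted p of 0.00323 and 0.00191. VAV3, another exchange factor of small GTPases, was instead among the lowered genes described below.

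Below these came a tail of raised genes with small differences and small errors, and ZFP36, which rose more, is given with them. SASH1, a signalling scaffold, lay at 7.65, 7.80 and 7.96 in DMSO and at 8.26, 8.35 and 8.40 in R1881, a rise of only 1.46-fold with an adjusted p of 0.00176. PTPN1, a tyrosine phosphatase that dampens insulin receptor signalling, rose 1.42-fold, from 9.70 to 9.92 to 10.18 to 10.40 (adjusted p 0.00384). ZFP36, which speeds the decay of mRNAs with AU-rich elements, rose 1.7-fold (adjusted p 0.0136). It was the only 1 of 24 measured immediate early genes called (4.17%, against 0.482% over all genes). FOS, JUN and EGR1 differed by 0.32, 0.19 and 0.03. ACAD8, a mitochondrial enzyme of valine breakdown, rose 1.33-fold (adjusted p 0.0148). The smallest called rises were 1.32-fold for JPH1, a junctophilin, 1.27-fold for CDK5R1, an activator of a neuronal kinase, and 1.27-fold for AKAP12, a scaffold of protein kinase A (adjusted p 0.0405, 0.0258 and 0.0468). Each of these 3 genes also passed in the paired fit, AKAP12 narrowly (adjusted p 0.046).

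Of the 61 calls, 40 held whichever single array was left out. SPDEF, PHACTR3, JPH1 and NDNF lost the call with 11 of the 12 arrays left out in turn, AKAP12 with every one, and NEDD4L and VAV3 with 10. NDFIP2, ZFAND5 and CDK5R1 lost it with 9, HES6, SLC35F2 and CAMK2N1 with 8, and H2AZ1 and C9orf152 with 7. The others were NUDT11 with 6, PMEPA1 with 5, UGT2B28 and CDYL2 with 4, ACAD8 with 3 and SPARCL1 with 2. None of the 61 changed direction, which groups without overlap cannot do when an array is left out. All 61 were called with the label as a block.

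**Figure D3:**
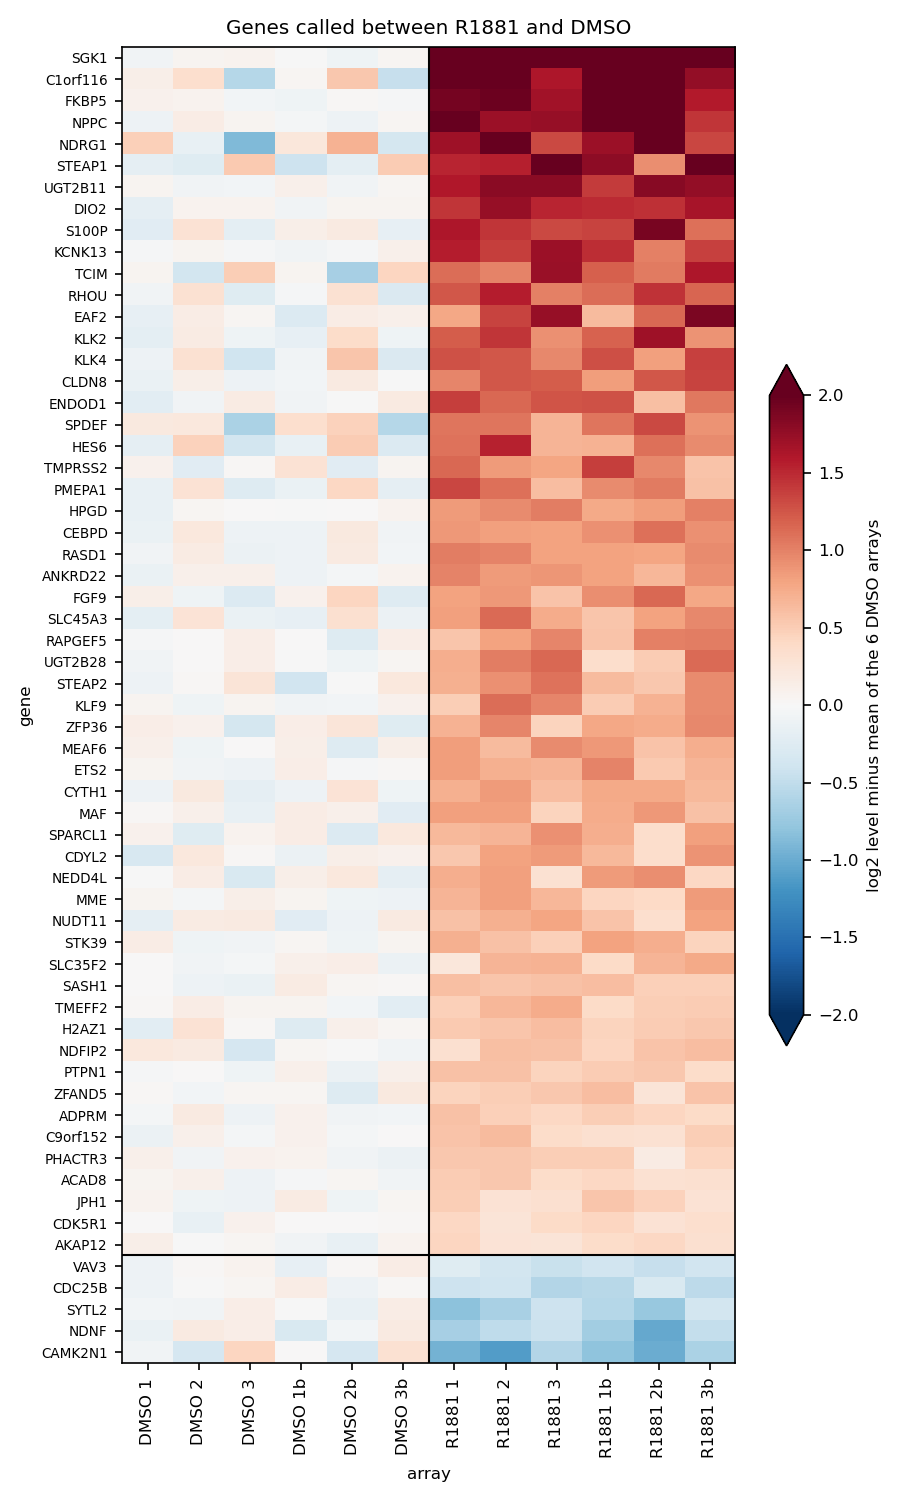
Rows are the 61 called genes and columns the 12 arrays, and colour is the log2 level minus the mean of the 6 DMSO arrays, with values past the ends of the scale shown at its ends. All 56 raised genes are red in every R1881 array and the 5 lowered genes blue, and C1orf116, NDRG1, TCIM and SPDEF vary visibly among the DMSO arrays too.

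The lowered genes were fewer and moved less. CAMK2N1, an inhibitor of calcium/calmodulin-dependent kinase II, had levels of 10.14, 10.45 and 10.92 in DMSO and of 9.36, 9.61 and 9.89 in R1881. It fell by 0.85 on the log2 scale (SE 0.15, adjusted p 0.0256), which is 1.8-fold lower. NDNF, a secreted glycoprotein, lay at 7.98, 8.32 and 8.47 in DMSO and at 7.26, 7.70 and 7.85 in R1881, a log2 difference of -0.63 (SE 0.12, adjusted p 0.0406). SYTL2, a Rab effector of vesicle traffic, went from 8.58, 8.70 and 8.88 in DMSO to 7.92, 8.11 and 8.36 in R1881, a log2 difference of -0.60 (SE 0.093, adjusted p 0.0101). Its other kept probes, both dim, differed by 0.02 and -0.05.

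CDC25B, the phosphatase that activates cyclin-dependent kinases at mitotic entry, lay at 10.52, 10.63 and 10.77 in DMSO and at 10.04, 10.15 and 10.32 in R1881. It fell by 0.46 on the log2 scale (SE 0.072, adjusted p 0.0101), 1.38-fold lower. VAV3, which is known to enhance androgen receptor activity in prostate cancer cells, lay at 8.79, 8.97 and 9.09 in DMSO and at 8.496, 8.56 and 8.71 in R1881, and fell by 0.38 (SE 0.070, adjusted p 0.0318). Its other kept probes, both dim, differed by 0.00 and -0.07. Of the 5, CAMK2N1, NDNF and SYTL2 were at least 1.5-fold lower.

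The lowered calls were less secure than the raised ones. Without array DMSO 1, DMSO 3, DMSO 3b, R1881 2 or R1881 1b the count was 2, and without DMSO 2, DMSO 2b, R1881 1 or R1881 3 it was 3. With a variance trend and robust estimation in limma 0 were lowered, at 398 genes with an unadjusted p under 0.05. After cyclic loess scaling 73 genes were raised and 4 lowered, and CAMK2N1, NDNF and VAV3 were not among the 4. The 5 genes described above kept their direction in each of these fits, of which only cyclic loess could have altered it. All 5 were called with the label as a block, CAMK2N1 at an adjusted p of 0.000237 and SYTL2 at 0.00104.

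With the label as a block, 31 more genes were lower, and 35 of the 36 in all were lower in every one of the 6 pairs, as 3.54% of all genes were. That fit selects for a steady difference within pairs, so nothing is read from this count. The unpaired groups of only 10 of the 36 did not overlap. Among these genes, named after their values were seen unless a list below holds them, were members of the BMP pathway. BAMBI, a decoy receptor of the TGF-beta family, lay at 11.36, 11.44 and 11.93 in DMSO and at 10.35, 10.93 and 11.13 in R1881, a log2 difference of -0.73 (adjusted p 0.0839 unpaired and 0.00745 paired). BMP2, a bone morphogenetic protein, and ID1, an immediate target of BMP signalling, differed by -0.49 and -0.49. Their paired adjusted p were 0.0429 and 0.0422. A dimmer kept probe of ID1 differed by -0.06. PMEPA1, which restrains TGF-beta signalling, was raised 1.92-fold (adjusted p 0.0175 unpaired). Its other kept probes had log2 differences of 0.35 and 0.68 against 0.94. TGFBR3, a TGF-beta co-receptor, had a log2 difference of 0.59, and BMPR1B, a BMP receptor, of 0.41, with paired adjusted p of 0.00949 and 0.0168. Of the 26 measured genes of the TGF-beta and BMP list, 1 was raised (3.85%) in the unpaired fit. In the paired fit 3 were raised and 3 lowered. Over all genes 0.442% were raised unpaired, and 1.11% were raised and 0.284% lowered in the paired fit.

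Genes of other signals also passed as lower only in the paired fit. ACKR3, a scavenging chemokine receptor, lay at 8.42, 8.60 and 8.87 in DMSO and at 7.70, 8.08 and 8.32 in R1881, and TNFSF10, the death ligand TRAIL, at 9.34, 9.48 and 10.29 and 8.74, 9.04 and 9.36. Their log2 differences were -0.58 and -0.64, with paired adjusted p of 0.00518 and 0.00737. GATA2, a zinc finger factor that helps the androgen receptor reach chromatin, differed by -0.54 (adjusted p 0.223 unpaired and 0.0405 paired). WNT5A, a WNT ligand, differed by -0.61, IGFBP5, which binds insulin-like growth factors, by -0.55, and STC1, a secreted glycoprotein, by -0.53, with paired adjusted p of 0.0429, 0.0068 and 0.00745. TLE3, a co-repressor, differed by -0.66 and FOXQ1, a forkhead factor, by -0.72 (paired adjusted p 0.00314 and 0.00518).

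The raised genes that only the paired fit called were mostly moderate in size with overlapping groups. LRIG1, a brake on EGF receptor signalling, spread over 7.79, 8.43 and 8.98 in DMSO and 8.66, 9.50 and 10.24 in R1881, with an adjusted p of 0.28 unpaired and 9.62e-05 paired. SOCS2, a suppressor of cytokine signalling, had a log2 difference of 1.12 (paired adjusted p 0.000104). FZD8 and FZD5, WNT receptors, differed by 0.82 and 0.48, and LEF1, a transcription factor of the WNT pathway, by 0.66 (paired adjusted p 0.000663, 0.00742 and 0.0108). HIF1A, the hypoxia-inducible factor, differed by 0.79, and HK2, a hexokinase of glycolysis, by 0.62 (paired adjusted p 0.0124 and 0.00108). Other kept probes differed by 0.32 and 0.41 for HIF1A, by 0.24 for HK2 and by 0.67 for SOCS2. IRS1, an adaptor of the insulin receptor, differed by 0.57 (paired adjusted p 0.0186). SOCS2, HIF1A, HK2, FZD5 and IRS1 were chosen after their values were seen.

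The gene lists, written with earlier results of these data known, were described by counts and medians beside all genes tested. The median log2 difference of all genes was -0.01. Over all genes 0.442% were raised and 0.0395% lowered, and in the paired fit 1.11% and 0.284%. Of 77 androgen-induced genes 63 were measured, 17 were raised (27%) and none was lowered, against 0.442% raised over all genes. The median of the 63 was 0.36 and 56 of them had a positive difference. In the paired fit 28 were raised and none lowered. Members that stayed uncalled in both fits included SMS, a spermine synthase, at 0.45, TPD52 at 0.40, CAMKK2, a calcium-dependent kinase, at 0.28 and UAP1, an enzyme of amino sugar synthesis, at 0.28. FKBP5, SGK1, KLK2 and others of this list were among the genes an earlier reading of these arrays had named. The mean level over the 63 genes ranged from 8.13 to 8.31 in DMSO arrays and from 8.63 to 8.93 in R1881 arrays, without overlap.

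Of 23 measured androgen-repressed genes, 2 were raised and 1 was lowered, and their median of -0.01 was that of all genes. Those raised were UGT2B11 and UGT2B28, and CAMK2N1 was lowered. UGT2B28 passed the filter only through its R1881 arrays. In the paired fit ACKR3 and TNFSF10 were also lower. FOLH1, which encodes prostate-specific membrane antigen, spread over 7.32, 7.81 and 8.46 in DMSO and 6.74, 7.53 and 8.31 in R1881 and was not called (-0.30, adjusted p 1). The proto-oncogene MYC differed by 0.19, and MET, a receptor tyrosine kinase, by -0.01.

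Of 27 measured targets shared by glucocorticoid and androgen receptors, 4 were raised (14.8%, against 0.442% of all genes), with a median of 0.35. In the paired fit 11 were raised, as were 1.11% of all genes. Cholesterol and fatty acid synthesis showed no call in 28 genes in either fit, with a median of -0.02. FASN, the fatty acid synthase, differed by 0.06, SCD, a desaturase, by 0.04, and the cholesterol synthesis enzyme HMGCS1 by -0.05. None of 34 measured genes of glycosylation and the secretory pathway was called, and 2 were raised in the paired fit. Those were DNAJB9, a chaperone of the endoplasmic reticulum, at 0.47, and CSGALNACT1, an enzyme of chondroitin synthesis, at 0.41. Among 39 genes of receptor tyrosine kinase and insulin signalling no gene was called unpaired, and LRIG1, ERRFI1 and IRS1 were raised and IGFBP5 lowered with the block.

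Mitotic genes had small differences, mostly negative. All 35 were measured and 30 had a negative difference, as did 54.4% of all genes tested, and their median was -0.18. CDC25B was lowered (2.86% of the list, against 0.0395% of all genes). CCNB2, a mitotic cyclin, joined it in the paired fit (adjusted p 0.181 unpaired and 0.0196 paired). CCNB2 lay at 10.17 to 10.46 in DMSO and at 9.67 to 10.18 in R1881. AURKB, a kinase of the chromosome passenger complex, differed by -0.36 and was not called (adjusted p 0.627). The mean level over the list ranged from 9.24 to 9.41 in DMSO arrays and from 9.03 to 9.30 in R1881 arrays, so the groups overlapped, and it was lower under R1881 in each of the 6 pairs of the same label. Among 36 genes of cell cycle entry and DNA replication the median was -0.01 and none was called. MCM5, a subunit of the replicative helicase, was lower in the paired fit only (-0.47, adjusted p 1 unpaired and 0.00938 paired).

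The remaining lists held a single called gene or none, apart from RHOU and CLDN8 among 39 genes of the cytoskeleton and adhesion (5.13%). GRHL2, a grainyhead factor of epithelia, and KLF6 were raised in the paired fit only, at log2 differences of 0.54 and 0.44 (paired adjusted p 0.0038 and 0.0328). HES6 was the raised gene of 30 in WNT and Notch signalling (3.33%), KLF9 of 26 clock and KLF regulators (3.85%) and SPDEF of 27 luminal transcription factors and receptor partners (3.7%). FOXA1, the pioneer factor of luminal cells, differed by 0.08, and NR3C1, the glucocorticoid receptor, by -0.06. Polyamine and proline metabolism had 0 calls of 18 in either fit.

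**Figure D4:**
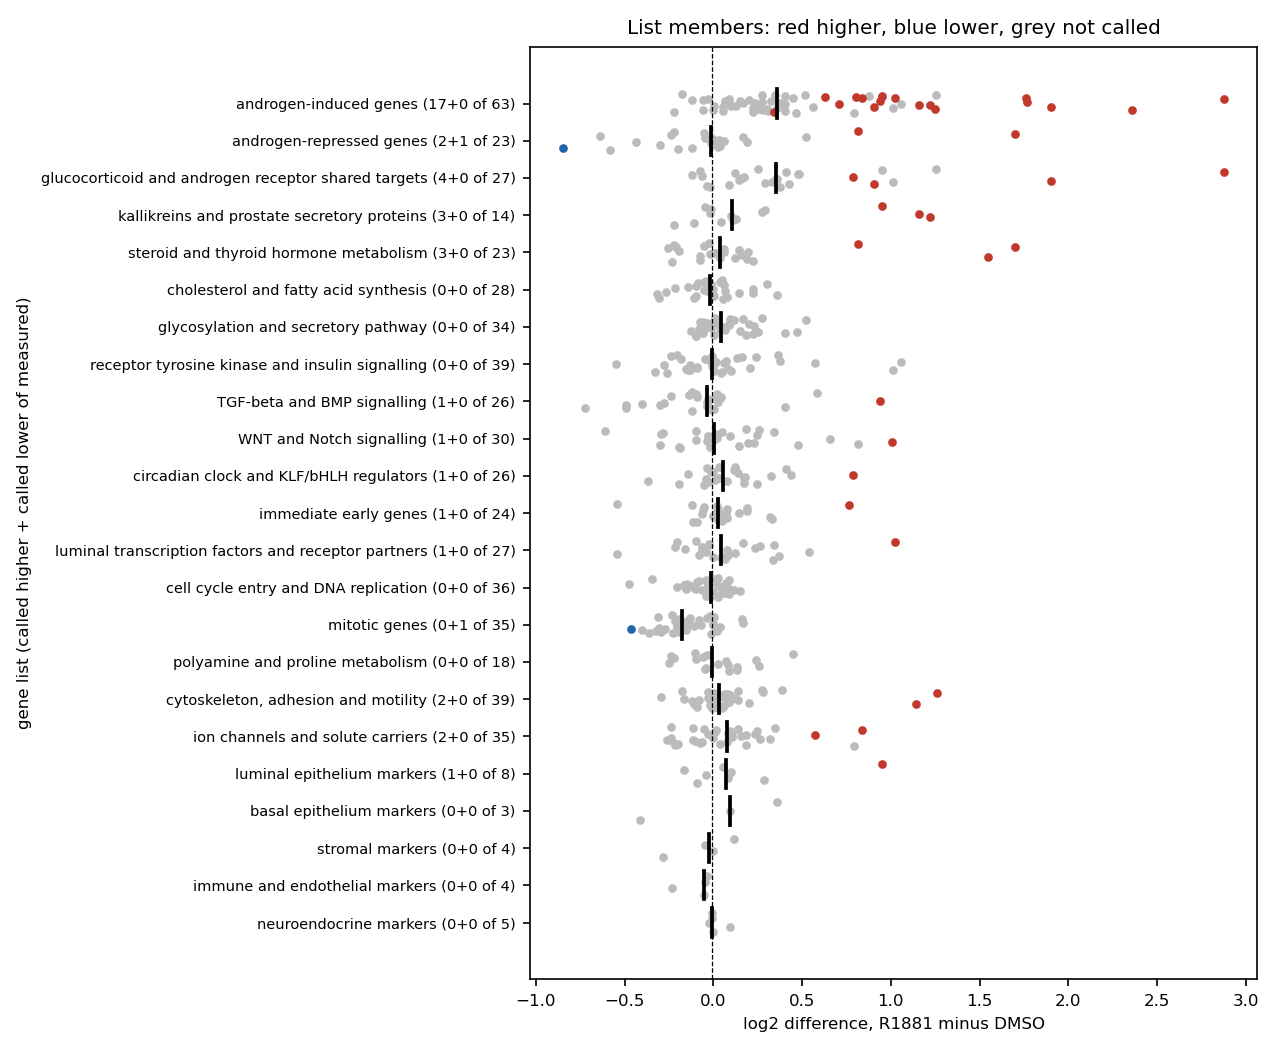
Each row is a gene list and each point a measured member, placed by its log2 difference (R1881 minus DMSO), with raised genes red, lowered genes blue, uncalled genes grey and the list median as a black bar. The numbers beside each list are its genes called higher and lower of those measured, led by 17 and 0 of 63 for the androgen-induced genes.

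Within each set of arrays the differences were close to each other. SGK1 differed by 2.94 in arrays 1 to 3 and by 2.82 in arrays 1b to 3b, FKBP5 by 1.82 and 1.98, and CAMK2N1 by -0.89 and -0.80. The called gene whose sets lay furthest apart was ENDOD1, at 1.30 and 0.94. All 61 called genes had the same direction in both sets, as groups without overlap must. Between array numbers the differences spread more. KLK4 differed by 1.37, 0.60 and 1.505 in the arrays of number 1, 2 and 3, taking an array and its b array together, and EAF2 by 0.92, 1.10 and 1.73. TMPRSS2 differed by 1.07, 1.13 and 0.64 and DIO2 by 1.58, 1.54 and 1.53. When arrays of the same number were averaged, so that 3 samples stood against 3, 4 genes were raised and 0 lowered, and 164 had an unadjusted p under 0.05. With the number as a block as well, 21 were raised and 0 lowered, with 633 at an unadjusted p under 0.05. If 1b to 3b were repeat runs of 1 to 3, those counts would apply.

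The levels of called genes were also read in arrays of R1881 combined with either of a pair of reference chemicals, 3 arrays each. These combinations are given as levels only, beside the ranges in DMSO and R1881 above. The genes named were picked from the called genes, with no count over all of them. Bicalutamide, an androgen receptor antagonist, was given at 20 uM and Dihydrotestosterone, the natural androgen, at 0.5 uM, each with 0.33 nM R1881. With Bicalutamide SGK1 lay at 9.26, 9.47 and 9.56, above every DMSO array and below every R1881 array. UGT2B11 at 6.72, 6.86 and 6.96, KLK2 at 6.98, 7.09 and 7.09 and SASH1 at 7.75, 7.77 and 7.89 lay near or within the DMSO range. TMPRSS2 at 10.72, 10.73 and 11.31 lay above the DMSO range, and 1 of its arrays reached into the R1881 range. STEAP1 at 8.30, 8.78 and 8.86 also lay above the DMSO range and partly within the R1881 range. TCIM at 9.17, 9.23 and 9.36 lay between the highest DMSO array (9.05) and the lowest R1881 array (9.56). PTPN1 at 9.85, 10.01 and 10.44 spread from the DMSO range to above every R1881 array. FGF9 at 8.45, 8.77 and 8.82 lay below every DMSO array. Of the lowered genes, CDC25B lay at 10.52, 10.58 and 10.79 and SYTL2 at 8.52, 8.78 and 8.94, near the DMSO range, while CAMK2N1 at 9.72, 10.39 and 10.44 lay partly below it.

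With Dihydrotestosterone added, DIO2 lay at 9.14, 9.17 and 9.18, above every array of R1881 alone, and so did SGK1 at 12.07, 12.18 and 12.21 and UGT2B11 at 8.74, 8.85 and 8.91. TMPRSS2 at 11.14, 11.25 and 11.46 and ETS2 at 8.33, 8.38 and 8.51 stayed within or just below the R1881 range. SYTL2 lay at 7.48, 7.64 and 7.90, below every array of R1881 alone, and CDC25B at 10.24, 10.25 and 10.32, at the upper end of its range under R1881 alone.

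**Figure D5:**
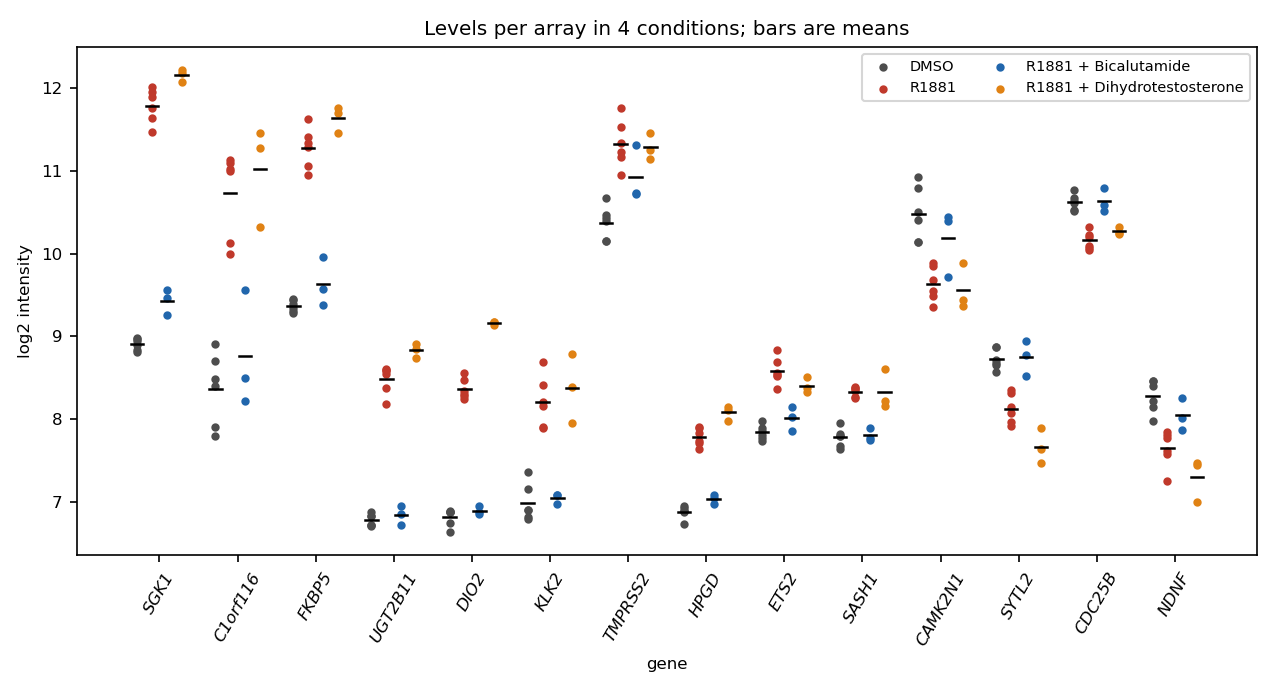
Log2 intensity of 14 genes, 10 raised and 4 lowered, in 6 DMSO, 6 R1881, 3 R1881 + Bicalutamide and 3 R1881 + Dihydrotestosterone arrays, 1 point per array with bars at the group means. For UGT2B11, DIO2 and KLK2 the Bicalutamide arrays lie beside DMSO, and for SYTL2 all 3 Dihydrotestosterone arrays lie below R1881 alone, while for NDNF 1 of the 3 does.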

How the data were processed

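Gene expression was measured on Illumina Human HT-12 v4 arrays, and 12 of the 96 arrays were compared. Scanning was done with iScan 3.3.28 and later steps with GenomeStudio and Partek software, according to the design text of the series. The submitters' processing notes also name limma. The deposited values are log2 intensities, as judged from their range of 6.3157 to 14.152. Array medians of 6.7211 to 6.7212 show that they were already normalized between arrays, so they were used as deposited. The background correction and the genome build are not given in the sources used here. Precision is limited by the number of arrays.

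Of 48107 probes, 30113 had 1 gene symbol in the platform annotation, 8 had several and 17986 were not listed. Probes above the median of their array in at least 6 of the 12 arrays were kept (23438), and the brightest kept probe stood for its gene, which gave 12665 genes. The called genes had 25 other kept probes, and 2 of these, of SYTL2 and VAV3, had the opposite sign. The 24 missing values touched 0 tested genes. Differences, SE and p-values came from limma 3.58.1 (lmFit and eBayes, R 4.3.3) with Benjamini-Hochberg adjustment, and files were read with data.table (version 1.17.8). The scripts were tested on simulated data. The genes, members and lists were chosen with earlier results of these data known. Genes were named as the 30 largest rises, all lowered genes, the 15 raised genes with the smallest adjusted p at a log2 difference of 0.32 to 1, called list members, the 2 largest uncalled members of each list, and a fixed set of androgen targets. Other genes named (NEDD4L, NDFIP2, CDYL2, H2AZ1, SPARCL1, TMEFF2, ACAD8, JPH1, CDK5R1 and the remaining ones called only with the block) were chosen after their values were seen.

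The pairing was checked by correlating deviations from the group means over all genes. Between DMSO and R1881 arrays of the same label r was 0.54, 0.45, 0.90, 0.73, 0.59 and 0.86 for labels 1, 2, 3, 1b, 2b and 3b, all over 0.1, so the fit with the label as a block is printed beside the counts. For labels 1 and 3b, however, the best partner was not the array of the same label. Within a group, an array and its b array correlated at 0.70, 0.82 and 0.96 in DMSO and at 0.87, -0.08 and 0.94 in R1881. Alternatives covered the arrays fitted, the filter, scaling, probe choice, variance model, blocking, averaging and leaving out arrays.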

Additional observations from a re-analysis of the deposited data

Results flagged for a closer look

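In 206 genes, those named or called in either fit, the 6 arrays of each group were examined for a single array far from the rest. Of 412 such sets 9 had one, while chance gives about 1 in 20. Array R1881 2b was the one apart in 4 of them. TRPM8 lay there at 6.659 against 7.22 to 7.47 in the other R1881 arrays, HSPA2, a chaperone, at 6.924 against 7.34 to 7.55, PHACTR3, a regulator of protein phosphatase, at 6.77 against 7.02 to 7.14, and INSM1, a neuroendocrine transcription factor that was not called, at 8.13 against 6.87 to 7.22. STC1 lay at 9.066 in array R1881 3b against 8.43 to 8.62 in the others.

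Among DMSO arrays, HPGD lay at 6.74 in array 1 against 6.88 to 6.96, and PPP3CA, a subunit of calcineurin, at 7.591 in array 1 against 7.30 to 7.41. ZNF518B, a zinc finger protein, lay at 8.611 in array 1b against 8.80 to 8.91, and SNAP91, a clathrin adaptor, at 6.688 in array 2b against 6.47 to 6.55.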

How the results depend on the processing

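Against 56 raised and 5 lowered genes and 17 raised androgen-induced genes, the replicate block of the label gave 141, 36 and 28, the block of the number 188, 70 and 28, and the number as a random effect 176, 62 and 28. With the label block and both arrays labelled 2 left out, an alternative chosen after seeing the data, 96 were raised and 27 lowered. A fit on all 96 arrays gave 23, 1 and 10. Averaging arrays of the same number gave 4, 0 and 2, and with the number as a replicate block 21, 0 and 8. Arrays 1 to 3 alone gave 6, 0 and 2 (220 genes at an unadjusted p under 0.05), and arrays 1b to 3b alone 1, 0 and 1 (118). At an adjusted p under 0.01, 34 were raised and 0 lowered, and 3 lowered genes were at least 1.5-fold lower. The lowered count was 2 with the filter at the 75th percentile, 3 with the mean of a gene's probes and 0 with a variance trend and robust estimation (398 at an unadjusted p under 0.05). Leaving out 1 array gave 39 to 53 raised and 2 to 4 lowered genes. The causes were not tested.

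All 61 called genes kept their direction under every alternative in which they were tested. Leaving out, averaging or blocking these arrays could not have altered it. Uncalled genes changed sign: INSM1 was 0.027 with cyclic loess, 0.267 in arrays 1b to 3b and 0.011 with the block and both arrays labelled 2 left out. Without single arrays the gene INSM1 ran from -0.2095 to 0.116, ENO2 from -0.026 to 0.229 and KRT18 from -0.379 to 0.068. CD14 was 0.018 in arrays 1 to 3. With cyclic loess the median of all genes moved from -0.01 to 0.01.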

Other observations

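Probes that the platform annotation used here does not list carry no gene name and stayed out of the comparison above. Of 6380 such probes that passed the same filter, 8 were higher under R1881 and 0 lower at an adjusted p under 0.05 (limma, adjusted over these probes), with 138 at an unadjusted p under 0.05. The largest log2 difference among them was 1.96.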
